A study of Mus musculus with 12 samples.

Results

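MYC binding after treatment with the BET inhibitor I-BET was set against MYC binding without treatment in RAW264.7 cells, a mouse monocyte-derived line with macrophage features whose source the labels give as bone marrow. The members are all 448 peaks of both MYC ChIP-seq lists, 136 from cells kept with I-BET at 500 nM for 4 h and 312 from untreated cells, out of 63578 peaks in the 8 lists of the series. Neither group received RANKL, and the labels give no vehicle for the untreated cells. Lists of the partner protein MAX from the same treatments (36785 peaks with I-BET and 8839 untreated), and the MYC list of cells given RANKL, the cytokine that turns this line into osteoclasts, at 50 ng/ml for 4 h (299 peaks), served as a backdrop. I-BET peaks were divided at a width of 100 bp, and peaks of the lists were matched where they shared at least 1 bp. An untreated peak with such a match is called kept and one without is called lost, which speaks of the lists and not of the amount of MYC on DNA.

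MYC is a basic helix-loop-helix transcription factor that binds DNA as a pair with MAX, preferably at the E-box CACGTG and close relatives of it. Its classic targets are genes for ribosome building, translation, nucleotide synthesis and mitochondria. BET proteins read acetylated histones and help to start and extend transcription. BET inhibitors occupy their bromodomains, and in several blood cell tumours they are known to lower transcription of the Myc gene itself.

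Each antibody and treatment has 1 library, so no difference below has a replicate check or a p-value. Exact Clopper-Pearson 95% intervals are given with shares and cover counting error only. Read depth is unknown from the files. The 4 input libraries were not analysed here, so whether reads pile up at a peak without antibody was not tested. Peak lists do not show RNA levels: of 9 macrophage marker genes (Spi1, Csf1r and Cd68 among them) 0 had a MYC peak with I-BET and 0 untreated, while 8 had a MAX peak with I-BET and 6 untreated. For 8 osteoclast markers the MAX counts were 4 with I-BET and 1 untreated, and for 5 B lymphocyte markers 2 and 2. The share of all protein-coding genes with a MAX peak was not computed, and the I-BET MAX list is far longer than the untreated one. These MAX counts are therefore no result about the markers.

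Promoter stretches under MYC peaks are shown first, because the E-box is the DNA sequence MYC and MAX are known to bind and 9 of the 10 promoter windows that kept a peak held it or a close relative. All are from RefSeq (GRCm38.p6, the mm10 assembly), run 5′ to 3′ along the gene, and have in capitals the motifs searched on both strands, which are CACGTG, the same on either strand, and its relative CACGCG, which reads CGCGTG on the other strand. The first group lies under peaks found with I-BET and untreated.
G6pc3, chr11:102189595-102189671, plus strand: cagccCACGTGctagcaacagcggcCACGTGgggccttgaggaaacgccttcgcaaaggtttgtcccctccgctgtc
Ubfd1, chr7:122066948-122067025, plus strand: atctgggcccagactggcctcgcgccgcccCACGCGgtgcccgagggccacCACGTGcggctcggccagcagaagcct
Hdgf, chr3:87906071-87906170, plus strand: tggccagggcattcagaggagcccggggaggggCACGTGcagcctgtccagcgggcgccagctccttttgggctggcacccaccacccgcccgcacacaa
Hspe1, chr1:55087898-55087939, plus strand: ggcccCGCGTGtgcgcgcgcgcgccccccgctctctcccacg
Snhg15, chr11:6528711-6528792, minus strand: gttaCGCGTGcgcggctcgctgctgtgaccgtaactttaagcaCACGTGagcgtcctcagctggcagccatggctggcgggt
Snhg17, chr2:158361460-158361512, minus strand: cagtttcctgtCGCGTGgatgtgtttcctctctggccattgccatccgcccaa
3300005D01Rik, chr17:5798636-5798706, plus strand: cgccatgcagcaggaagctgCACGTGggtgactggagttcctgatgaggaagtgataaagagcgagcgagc

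The second group lies under untreated peaks with no I-BET peak, and was picked for holding CACGTG. Of 18 upstream stretches of gene-list promoters under such peaks, 5 held a motif and 13 did not (those of Nop58 and Eif4a2 among them). The stretches are parts of promoter windows, and the kept promoters shown above likewise leave out Mtg1, whose short overlap with the window held none. Also left out are Hspd1, whose stretch held CACGCG, and another start of Snhg17 with the same motif. Lost stretches were cut before the start, while kept ones run up to 49 bases past it, where a motif each of Snhg17 and Snhg15 lies. The 2 groups of stretches can therefore not be compared by their motif counts.
Pcbp1, chr6:86526272-86526439, minus strand: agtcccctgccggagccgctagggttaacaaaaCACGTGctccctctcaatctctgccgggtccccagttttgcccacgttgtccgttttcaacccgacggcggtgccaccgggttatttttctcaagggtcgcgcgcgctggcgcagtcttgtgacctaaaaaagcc
Nme1, chr11:93968273-93968419, minus strand: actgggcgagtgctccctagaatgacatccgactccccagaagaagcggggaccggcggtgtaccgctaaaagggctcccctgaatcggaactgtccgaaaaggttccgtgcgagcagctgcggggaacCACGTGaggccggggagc
Klf4, chr4:55532577-55532725, minus strand: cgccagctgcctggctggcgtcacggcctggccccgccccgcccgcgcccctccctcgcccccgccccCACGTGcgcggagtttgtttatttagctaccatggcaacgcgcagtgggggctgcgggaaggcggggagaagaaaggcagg
In G6pc3, which encodes the widely expressed glucose-6-phosphatase, the I-BET peak of 77 bp held 2 E-boxes. Both promoter groups were rich in the motifs. Of the 10 promoter windows (250 bases before to 50 after a start, 300 in all) that met both an untreated and an I-BET peak, 9 held CACGTG or CACGCG on either strand (90.0%, 55.5 to 99.8). Of the 182 windows with an untreated peak and no I-BET peak, 126 did (69.2%, 62.0 to 75.9). The share was 27.6% in 11489 windows with an I-BET MAX peak and no MYC peak, and 15.4% in all 32817 windows. Median GC content, in the same order of groups, was 62.2%, 65%, 62% and 52.7%. Its part in the motif shares was not tested. By motif, CACGTG stood in 5 of the 10 kept windows, in 36.8% of the lost ones and in 7.15% of all, and CACGCG stood in 7, in 43.4% and in 9.26%. The 10 windows come from few places: Snhg17 counts with 2 starts, and Hspd1 and Hspe1 share a peak. The intervals of the kept and lost windows overlap, and CACGCG can overlap its own reverse form, as it did in 5 untreated windows, each counted once. No promoter window held an I-BET peak without an untreated one.

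MYC peaks were fewer, narrower and mostly elsewhere after I-BET. With I-BET the 136 peaks covered 17000 bp in all, against 93891 bp for the 312 untreated peaks. With I-BET, 30 of the untreated peaks were kept (9.62%, 6.58 to 13.4). Of the I-BET peaks 38 overlapped an untreated peak (27.9%, 20.6 to 36.3), since several could fall within 1 wide untreated peak. Joining peaks at most 1 kb apart left 126 I-BET loci and 304 untreated loci, and 28 I-BET loci met an untreated peak.

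Width divided the I-BET list. Under 100 bp there were 105 of its 136 peaks (77.2%, 69.2 to 84.0), with a median width of 67 bp (52 to 97). The 31 wider peaks had a median of 161 bp (103 to 1960), against 260 bp for untreated peaks (145 to 4381), of which 0 were under 100 bp. The reads were 50 bp long, per the labels' protocols, so the narrowest peaks were barely wider than a read. Peaks under 100 bp were also 2 of the 11 in the MYC list of cells given RANKL and I-BET together, and 0 in each of the other 6 lists of the series. The widths nearest the limit were 96, 97 and 97 bp below it (inside Dpp9 and nearest to Samd9l and Gm8882) and 103 bp for 3 peaks above it (in Peak1, Lars2 and Snhg17). Wide I-BET peaks overlapped untreated peaks in 24 of 31 cases (77.4%, 58.9 to 90.4) and narrow ones in 14 of 105 (13.3%, 7.49 to 21.4). With the limit at 75 bp, 55.4% of the wider and 2.82% of the narrower peaks overlapped untreated ones.

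The authors' score, their own value per peak, put the I-BET peaks that overlapped untreated ones low in the I-BET list. The first of them held rank 65, and 36 of the 38 stood in the lower part of the ranking, beyond its midpoint. None of the 50 highest-ranked I-BET peaks overlapped an untreated peak (0 of 50, which allows up to 7.11%), and 46 of those 50 were narrow. Score and width were not related alike in all I-BET peaks. Spearman's rho between them was -0.0993 over all 136, 0.366 over the 105 narrow ones, 0.916 over the 81 narrow ones found in no other list and -0.457 over the 24 narrow ones found in another list. Untreated, it was 0.304 over all 312 peaks and 0.568 over the 30 kept. These coefficients describe peaks within a library, and score and width both come from the same peak calls.

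**Figure D1:**
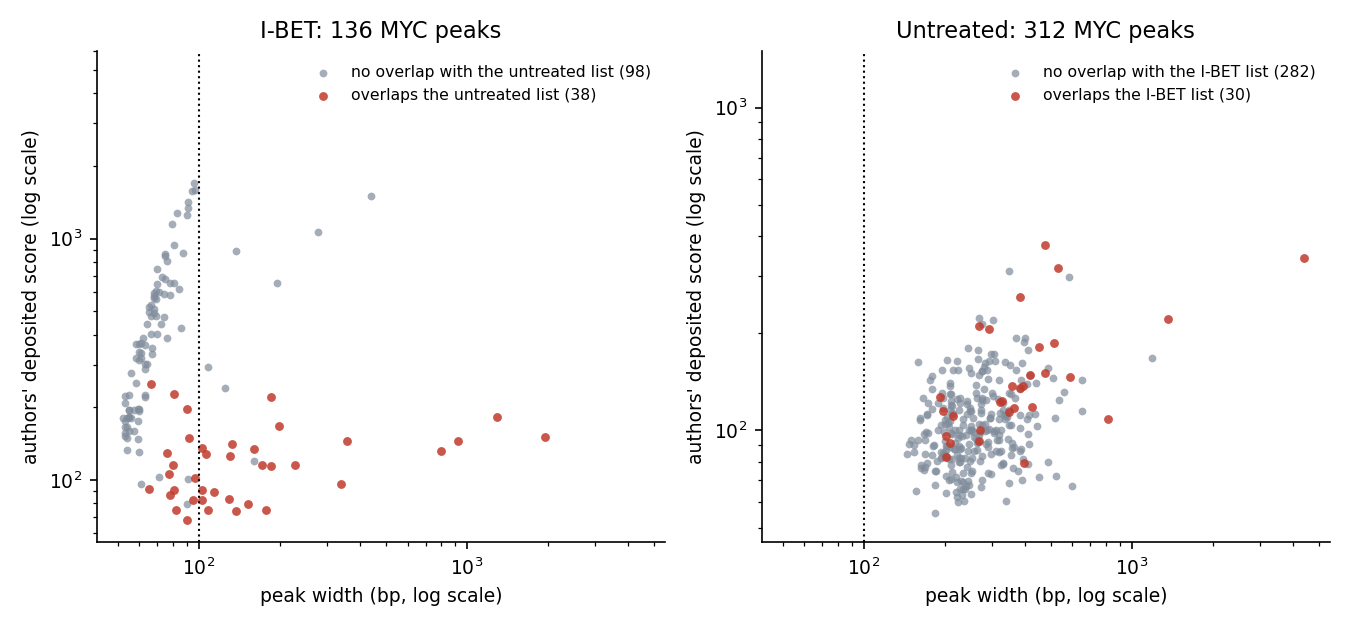
Width (bp, log scale) and the authors' deposited score (log scale, separate for each panel and not comparable between them) of each MYC peak with I-BET (left) and untreated (right). Red points overlap the other list, grey points do not, and the dotted line stands at 100 bp. The 98 I-BET peaks absent from the untreated list form a steep band under 100 bp with few exceptions, and the 30 kept untreated peaks lie among the wider ones.

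The untreated peaks that came back with I-BET were the higher-ranked ones more often. Kept peaks had a median untreated rank of 70.5 (order-statistic interval 44 to 111) and lost peaks a median of 166.5 (149 to 183). In 4 blocks of 78 peaks, from the highest scores down, 16, 8, 4 and 2 were kept, which is 20.5%, 10.3%, 5.13% and 2.56%. Of the top 10 untreated peaks 5 were kept, and of the top 20, 9. Of these, ranks 2 and 8 were both at the ribosomal RNA locus on chromosome 17, so they are 1 place. Rank 6 lay inside Zc3h7a, at an untreated MAX peak of rank 6951. Ranked by width, the median of the kept peaks was 53. Kept peaks were also more often in the MYC list of cells given RANKL alone: 26 of the 149 untreated peaks that overlapped that list were kept (17.4%, 11.7 to 24.5), against 4 of the 163 that did not (2.45%, 0.673 to 6.16). The RANKL list is another library of the same cells, and no test was made between these shares.

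**Figure D2:**
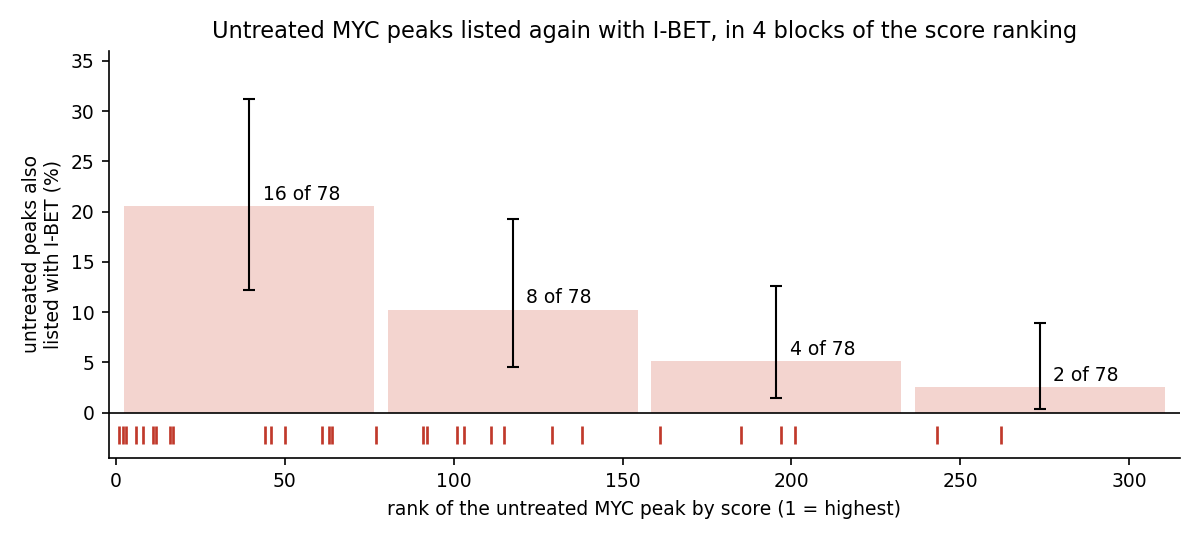
Share of untreated MYC peaks that overlapped an I-BET peak in each of 4 blocks of the untreated score ranking (bars, with exact 95% intervals) and the rank of each of the 30 kept peaks (red ticks). The share was 20.5% in the first block and 2.56% in the last.

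Where both lists had a peak, the one with I-BET was the narrower in all 39 overlapping pairs. The median ratio of I-BET to untreated width was 0.296 (0.0304 to 0.948). The I-BET peak lay wholly inside the untreated one in 32 pairs and covered its centre in 21. At Ncl (nucleolin, an abundant nucleolar protein of ribosome building) the peak was 229 bp wide with I-BET and 528 bp untreated. At Rpl10a, a protein of the large ribosomal subunit, the widths were 78 bp and 589 bp, and the I-BET peak sat at the edge of the untreated one. Near the shared promoter of Hspd1 and Hspe1, the genes of the mitochondrial chaperonin and its co-chaperonin, 1 I-BET peak of 178 bp bridged 2 untreated peaks of 450 bp and 198 bp.

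**Figure D3:**
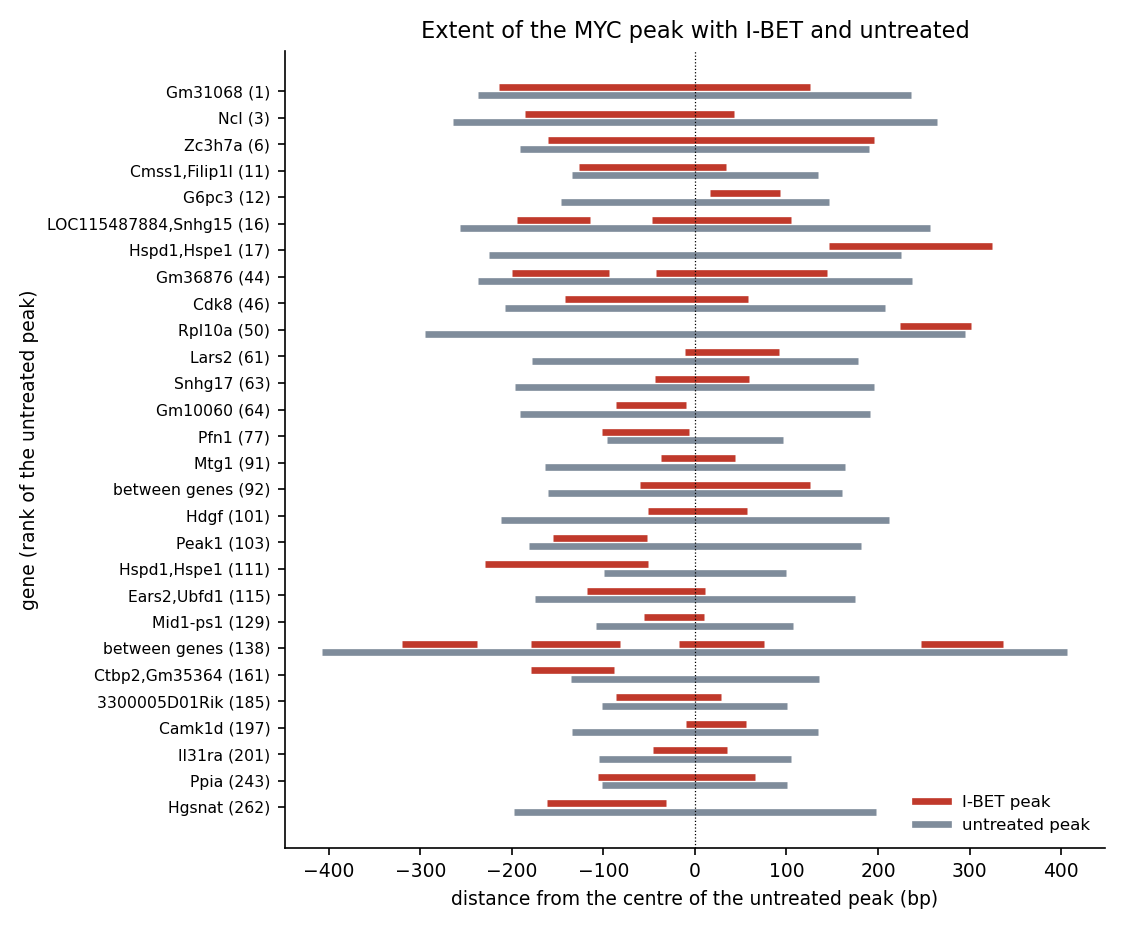
Extent of each I-BET peak (red) above the untreated peak it overlapped (grey), as distance in bp from the centre of the untreated peak, for the 28 kept untreated peaks under 1000 bp wide, ordered by untreated rank (in brackets). Names are genes at or around the peak. I-BET peaks were narrower throughout, and several lay to the side of the centre, as at G6pc3 and Rpl10a.

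Most genes with MYC at an end in untreated cells had no MYC peak listed there with I-BET. A gene was counted where a peak lay within 1 kb of either annotated end of a protein-coding gene. Such a peak was found with I-BET at 15 of 21883 genes (0.0685%) and untreated at 230 (1.05%). Of the 230 genes, 216 had no I-BET peak (93.9%, 90.0 to 96.6), 14 kept one, and 1 gene, Rps29, had a peak with I-BET only. Counting only starts in the promoter table, 10 genes had a peak with I-BET and untreated out of 200 untreated, and 0 with I-BET alone.

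The 14 genes that kept MYC came from 11 places. Ncl stood at rank 113 with I-BET and rank 3 untreated, G6pc3 at 116 and 12, and the pair Hspd1 and Hspe1 at 132 and 17. Rpl10a had ranks 126 and 50. Mtg1, a mitochondrial GTPase of ribosome assembly, had ranks 123 and 91, and Hdgf, a chromatin-associated growth factor, 133 and 101. The peak shared by Ears2, the mitochondrial glutamyl-tRNA synthetase, and Ubfd1 had ranks 127 and 115. Ppia (cyclophilin A, a protein-folding enzyme) stood lowest untreated, with ranks 114 and 243. These ranks are within lists of unequal length, so the 2 numbers of a gene show no change.

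The remaining kept genes were not kept at a start in the promoter table. Lars2, the mitochondrial leucyl-tRNA synthetase, had its peaks (103 bp with I-BET, 356 bp untreated) near an end that is no listed start. Pfn1 (profilin, which binds actin; 95 bp and 192 bp) and the pair Ctbp2 and Gm35364 (90 bp and 271 bp; Ctbp2 is a transcriptional co-repressor) were likewise away from a listed start. For 8 of the 14 kept genes the I-BET peak was at least 100 bp wide. Of the 14, 13 also had a MYC peak with RANKL, as did 94 of the 216 lost genes (43.5%), and all 14 had a MAX peak with I-BET.

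Ribosome building lost nearly all of its MYC peaks in the list. Of 65 genes for ribosome biogenesis, 12 had an untreated peak, 1 of them (Ncl) also with I-BET, and 11 were lost. The lost ones include Rrp1b at untreated rank 10 and Nol8 at 28, both nucleolar proteins, Nop58 at 34 and Nop56 at 284, core proteins of box C/D snoRNPs, and Gar1 at 99 and Dkc1 at 122, of the pseudouridylation complex. Polr1b, a subunit of RNA polymerase I, stood at 268, and Bop1, Nolc1, Mybbp1a and Gnl3 at 76, 108, 179 and 293. Of 79 cytosolic ribosomal protein genes, 11 had an untreated peak and 10 were lost, Rpl32 (rank 107), Rps7 (136), Rpl12 (162), Rplp2 (170) and Rpl13a (172) among them. Both shares of loss, 91.7% and 90.9%, stood close to the 93.9% over all genes with an untreated peak.

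Translation and growth genes followed, in small numbers. These counts stand beside the 93.9% lost over all genes with an untreated peak, and groups this small show nothing apart from it. All 5 translation factor genes with an untreated peak were lost (Eif4a2 at rank 54, Eif1a, Eif5a, Eif3b and Eif3a), and so were the 4 for nucleotide, one-carbon and polyamine synthesis. These 4 were Nme1, a nucleoside diphosphate kinase, at rank 56, Srm (spermidine synthase) at 88, Atic (purine synthesis) at 196 and Mat2a (methionine adenosyltransferase) at 289. The 4 splicing and RNA-binding genes Pcbp1, Srsf3, Prcc and Srsf2 had no I-BET peak either. Nor did Ccnd1, which encodes cyclin D1, at rank 18, or Hk2 (hexokinase) at 110. Klf4, a transcription factor of monocytes, stood at rank 218 untreated and had none with I-BET.

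Several of the kept genes serve mitochondria. Over all genes with an untreated peak 14 of 230 were kept (6.09%). Of the 4 with an untreated peak in the mitochondrial list, Hspd1 and Hspe1, which share a peak, and Mtg1 were kept and Pprc1, a coactivator of mitochondrial biogenesis, was lost from rank 38. Of 3 aminoacyl-tRNA synthetase genes, the mitochondrial Lars2 and Ears2 were kept and the cytosolic Vars was lost. The chaperone list kept Ppia and lost Cct3, a chaperonin subunit. Mtg1, Ears2 and Lars2 were put on these lists with their peaks known, so the counts are no result about mitochondria. Other mitochondrial genes, such as Timm21 (rank 30) and Mrpl1 (247), were lost and are not on the mitochondrial list. None of the 13 MYC and MAX network genes, the 25 BET and elongation genes or the 25 osteoclast genes had a MYC peak in either list.

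**Figure D4:**
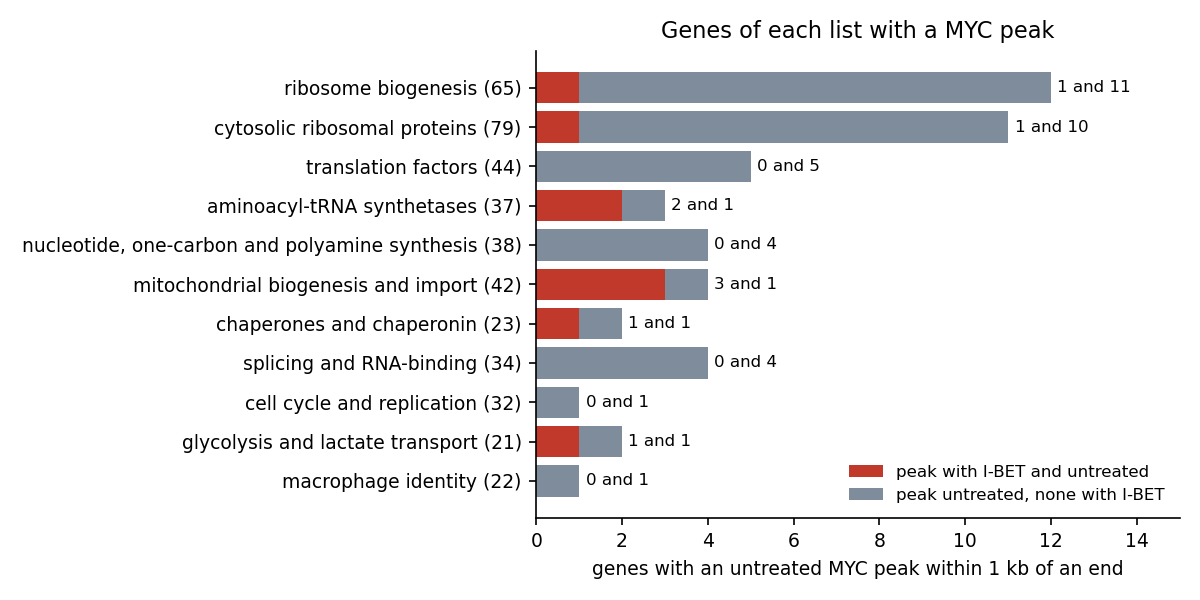
Genes with an untreated MYC peak within 1 kb of an end, by list, divided into those with an I-BET peak (red) and those without (grey). Brackets give the genes of the list matched to the annotation, and the printed pair gives kept and lost. Ribosome biogenesis (1 and 11) and ribosomal proteins (1 and 10) have the longest bars, and the lists together hold a small part of the 216 lost genes.

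The highest-ranked untreated peaks with no I-BET peak came from genes of many kinds. The first was that of Pemt, the phosphatidylethanolamine methyltransferase, at rank 4 (chr11:60046335-60046683). Of the 282 lost peaks, 5 overlapped the 11-peak MYC list of cells given RANKL and I-BET together (1.77%, 0.578 to 4.09), as did 4 of the 30 kept (13.3%, 3.76 to 30.7). The 5 lay at Pemt and Nop58 and inside Gtf2ird2, Noc2l and Angptl6. Nudt13 followed at rank 7, Fyco1 (autophagosome transport) with the chemokine receptor gene Xcr1 at 9, and Arsg with the transporter gene Slc16a6 at 13. Peaks inside Gtf2ird2 and the innate immune receptor gene Tlr2 stood at ranks 14 and 15, and Calm3 (calmodulin) at 19. Of the peaks called inside a gene in this paragraph, those in Gtf2ird2, Noc2l and Larp1 also lay within 1 kb of a listed start. Further down were Dhrs13 at 21, a peak inside Bin1 (membrane curvature) at 22, Uspl1 at 24, Fam102b at 25, a peak inside Larp1, which controls translation of ribosomal protein mRNAs, at 27, Cenpp, which shares the peak of Nol8, at 28, Gm52481 at 29, and Fasn (fatty acid synthase) at 35.

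Small RNA genes were among those without a MYC peak with I-BET. Untreated rank 5 lay between protein-coding genes on chromosome 14 (chr14:115042069-115042652), 1019 bp before the hairpin of Mir17, and rank 249 lay 737 bp from it. Both were without an I-BET peak. The hairpins of this cluster, a well-known MYC target, were looked up after the peaks had been seen. Mature sequences of the first 2 hairpins and of miR-20a, which shares the seed of miR-17, are printed from RefSeq with the seed (bases 2 to 8) in capitals.
mmu-miR-17-5p: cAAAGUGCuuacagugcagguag
mmu-miR-20a-5p: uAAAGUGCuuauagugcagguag
mmu-miR-18a-5p: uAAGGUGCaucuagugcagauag
The 4 genes of the U3 snoRNA, which guides cleavage of the ribosomal RNA precursor (Rnu3b1 to Rnu3b4, untreated ranks 32 to 173), were all lost. The U3 genes are near-identical copies, so reads cannot be placed among them with certainty. Of 9 snoRNA genes 1 was kept and of 38 lncRNA genes 6 were. Over genes of any biotype 273 of 296 with an untreated peak were lost, so the loss is not particular to small RNA genes. Snhg15 and Snhg17, both named as snoRNA host genes, were the only genes with Snhg or Gas5 names that had an untreated peak and were both kept, at ranks 16 and 63 untreated and at 112 and 103 with I-BET; they were picked out after their values were seen.

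Several of the highest-ranked kept places lay outside protein-coding genes. Untreated rank 1 (chr5:142367479-142367951, by the lncRNA gene Gm31068) kept a peak of 339 bp, against 473 bp untreated. The ribosomal RNA locus on chromosome 17 (Rn18s-rs5 and AY036118) held 6 I-BET peaks over 5245 bp and 2 untreated peaks over 5745 bp, at untreated ranks 2 and 8. A stretch on chromosome 6 (chr6:3200795-3201608, nearest gene Samd9l) held 4 narrow I-BET peaks inside 1 untreated peak of 814 bp. Other kept peaks lay inside Zc3h7a, Cmss1 and Filip1l, Cdk8, Peak1, Camk1d, Il31ra and Hgsnat. Further ones lay inside the annotated genes Gm36876, Gm10060 and Mid1-ps1, which are not protein-coding, and nearest to Pex2. The untreated MAX peak had rank 105 at Hgsnat, 2740 at Cdk8, 6951 at Zc3h7a, 7286 at Cmss1 and 8142 at Peak1, of 8839. The kept peaks inside Camk1d and Il31ra, at Lars2 and nearest to Pex2 overlapped no untreated MAX peak. In the MAX list of cells given RANKL alone, 20 of the 30 kept peaks had a match (66.7%) and 275 of the 282 lost ones (97.5%). Read placement at these places and at the ribosomal RNA locus was not tested. Untreated peaks at a gene end were kept in 12 of 191 cases (6.28%, 3.29 to 10.7) and other untreated peaks in 18 of 121 (14.9%, 9.06 to 22.5). The median distance from a peak's centre to the nearest listed start was 34118 bp for kept and 278 bp for lost peaks.

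Few narrow I-BET peaks lay at gene ends, and the shares of their places stood close to those of the annotated span. Of the 105, 6 were within 1 kb of a gene end (5.71%, 2.13 to 12.0), 41 inside a gene (39.0%, 29.7 to 49.1) and 58 between genes (55.2%, 45.2 to 65.0). The annotated span of the chromosomes divides into 2.93%, 36.5% and 60.5% in the same order. Of the 312 untreated peaks, 191 (61.2%, 55.6 to 66.7) were at a gene end, 79 inside a gene and 42 between genes. Of the 31 wide I-BET peaks, 6 were at a gene end (19.4%, 7.45 to 37.5), 6 inside a gene and 19 between protein-coding genes, 11 of these 19 within another annotated gene. A peak counted as inside a gene can still lie at a start within the gene's annotated extent, as the untreated peak in Cox5a did. Outside chromosome 18, 180 of 305 untreated, 3 of 101 narrow and 5 of 30 wide peaks lay within 1 kb of a listed start. The median distance to a start was 49187 bp for narrow and 91462 bp for wide I-BET peaks, and 381 bp for untreated peaks.

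The narrow peaks fell into 2 kinds by whether the untreated list shared them. The 14 that overlapped untreated peaks all overlapped a MAX peak with I-BET too, 5 were at gene ends (Ctbp2, G6pc3, Mtg1, Pfn1 and Rpl10a), and their median score was 104. The other 91 had a median score of 366. Of these, 81 met no peak in any of the other 7 lists, and those 81 had 0 at a gene end (which allows up to 4.45%), 34 inside genes and 47 between. The highest-ranked lay inside Dpp9 (rank 1, 96 bp), 99577 bp from Gm8882 (rank 2, 97 bp) and 47339 bp from Sulf1 (rank 3, 94 bp). Within genes came Myo7a at rank 8 and Zfp949 at 11, and at rank 9 a peak 936763 bp from its nearest gene, Nxph1. The others among the 20 highest-ranked narrow peaks, apart from the one by Rps29, lay nearest to Pou4f1, Olfr854, Gulp1, Pla2r1, Cldn34c1, Trim52, Tbc1d23, Ccn1, Ntrk2, Ythdc2, Prl3c1, St6galnac3 and Marcks, all between protein-coding genes, at distances of 2314 bp (Prl3c1) to 939436 bp (Trim52).

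The 10 narrow peaks outside the untreated list that met an I-BET MAX peak included both 7SL RNA genes. Rn7s1 and Rn7s2 on chromosome 12, which encode the RNA of the signal recognition particle, had peaks of 70 bp at rank 23 and 68 bp at rank 27. The Rn7s1 peak is also the one within 1 kb of Rps29, so the only protein-coding gene added with I-BET rested on it. The 7SL genes have many related copies in the genome, and read placement there is uncertain. Other peaks of this kind lay inside Acacb (rank 30), the Igk locus (37), Gnb1l (117), Arhgap21 (119), P2ry6 (121) and Uck2 (130).

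Of the 7 wide I-BET peaks outside the untreated list, 0 were at a gene end. The first, 437 bp at rank 4 inside the lncRNA gene Gm34259 on chromosome 17, also overlapped a MYC peak with RANKL and a MAX peak with I-BET. The next were 277 bp inside Ano2, a chloride channel gene, at rank 10, 137 bp at rank 12 with Bcl11a the nearest gene at 926515 bp, and 196 bp in Gm34043 at rank 20. Those 3 met no I-BET MAX peak. The remaining peaks of this kind lay nearest to Itga11 (rank 61) and Tra2a (66) and inside the lncRNA gene Gm30821 (111).

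MAX peaks remained where MYC peaks were lost. With I-BET, 24 of the 105 narrow MYC peaks overlapped a MAX peak (22.9%, 15.2 to 32.1), 27 of the 31 wide ones (87.1%, 70.2 to 96.4) and 310 of the 312 untreated MYC peaks (99.4%, 97.7 to 99.9). All 30 kept untreated peaks and 280 of the 282 lost ones did so. The 271 lost peaks that had a MAX peak untreated all had one with I-BET (271 of 271, 98.6 to 100). Of the 216 lost genes, 215 had a MAX peak at an end with I-BET and 208 untreated. The exception with I-BET, Nudt13, had none untreated either. The shares over all protein-coding genes and over all untreated MAX peaks were not computed, so these counts are no result particular to lost MYC places. Of the 25 BET and elongation genes, which had no MYC peak, 23 had a MAX peak with I-BET and 12 untreated. For the 25 osteoclast genes, also without MYC, the counts were 18 and 5. Without the share over all genes, these counts are no result about either list. The I-BET MAX list holds 4.16 times as many peaks as the untreated one, and the part of that larger number in the overlap was not tested. At lost MYC peaks the MAX peak had a median width of 1233 bp with I-BET and 680 bp untreated, and at kept ones 1087 bp and 737 bp. Ranks of the I-BET MAX list are not given, since 17 of its peaks (811 to 2199 bp wide) carry a score of 0, G6pc3 among their places. Only the score filter among the alternatives below used that score.

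**Figure D5:**
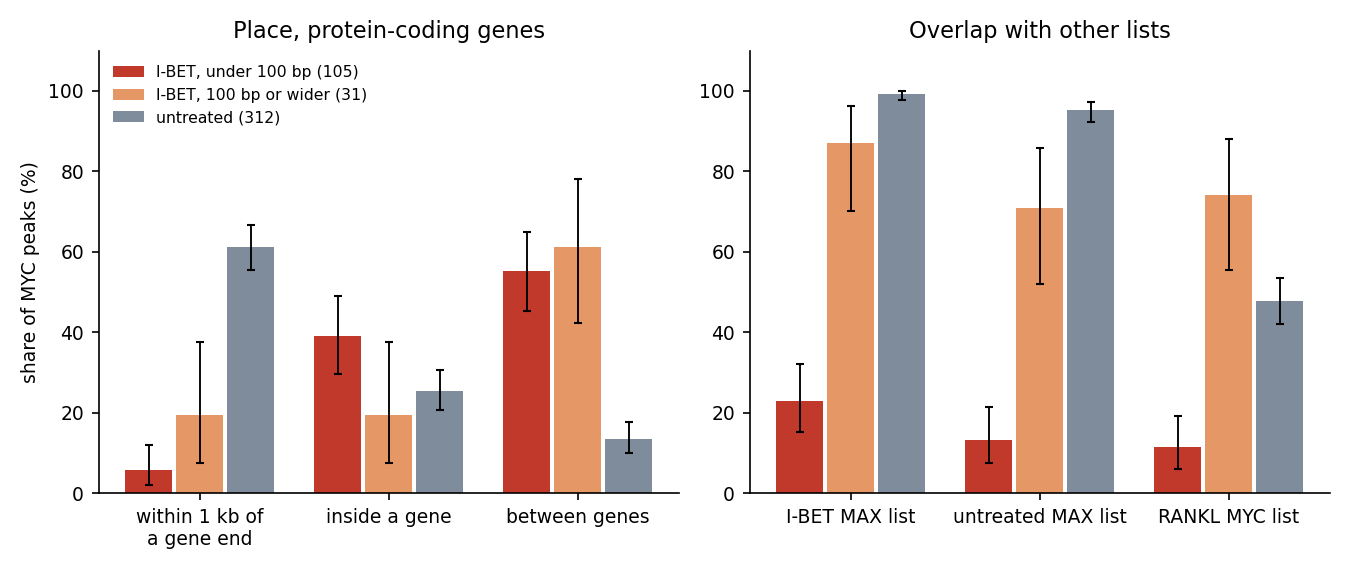
Shares of narrow I-BET, wide I-BET and untreated MYC peaks (percent, with exact 95% intervals) by place relative to protein-coding genes (left) and by overlap with other lists (right). Narrow I-BET peaks reach 5.71% at gene ends and 22.9% in the I-BET MAX list, and untreated peaks 61.2% and 99.4%.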

How the data were processed

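ChIP-seq peaks were taken from the deposited lists for MYC and MAX in RAW264.7 cells, with 1 library per antibody and treatment, and titles gave the groups. The submitters' processing notes name FastQC, Bowtie2 2.3.4.1, MACS2 2.1.1.20160309 and the build mm10 (GRCm38). Not given in the sources used here are the calling thresholds, how input entered and whether duplicates were removed. Each deposited row joins peaks of 3 call sets, numbered 3, 5 and 7 in the peak names, whose nature is not stated. Its score is the authors' own value for the joined peak and served only for ranks and filters inside each list. Read depth is unknown, and no test between treatments was possible with 1 library a side.

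Starts were raised by 1 to count positions from 1. Genes were assigned from the RefSeq extents of GRCm38.p6 (21883 protein-coding genes, without strand or exons, so exons and introns were not separated), and starts and sequences from its table of 32817 promoter windows, which holds none for chromosome 18. Peaks there enter no distance to a start or motif share. Of 501 entries in 14 gene lists, 500 matched. The peaks compared, the gene lists and the alternatives were chosen with earlier results of these data known. Named genes are those kept, those with an I-BET peak only, those at or holding the 20 highest-ranked lost peaks, the wide I-BET peaks and the 20 highest-ranked narrow ones, and up to 6 bound members of each list. A gene these rules would name is not reported here. Genes further down these rankings and the non-coding genes were named after their values had been seen.

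Alternatives covered the overlap, the score, the number of peaks, the width limit and the window at genes. The software was Python 3.11.15, with scipy 1.17.1 for intervals, pandas 2.3.3 and numpy 2.4.6 for tables, and matplotlib 3.10.9 for plots. Overlaps, gene assignment and intervals were tested on simulated data, overlaps against bedtools 2.31.1.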

Additional observations from a re-analysis of the deposited data

Results flagged for a closer look

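The number of listed peaks moved in opposite directions for the 2 antibodies. The MYC list with I-BET held 0.436 times as many peaks as the untreated one (136 and 312), and the MAX list with I-BET held 4.16 times as many (36785 and 8839). With 1 library each the difference was not tested.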

How the results depend on the processing

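No paired analysis was possible because the peak lists come from 1 library per antibody and treatment. Of 55 alternative values for the 12 results, 26 stayed within the counting interval of the value reported (for the lost genes, within 1.5 times) and 29 moved beyond it. Requiring a reciprocal overlap of 50% left 2.24% of untreated peaks kept, and 5.15% of all, 22.6% of wide and 0.0% of narrow I-BET peaks in the untreated list. It left 1.47% of all and 0.0% of narrow I-BET peaks and 6.73% of untreated peaks in the I-BET MAX list, since I-BET MYC peaks are narrow and I-BET MAX peaks wide. With peaks scoring at or above the median of their own list, 0 of 156 untreated peaks were kept, and 0 of 69 I-BET peaks (0 of 6 wide, 0 of 63 narrow) overlapped an untreated one. All 109 genes with an untreated peak were then lost, 1.45% of I-BET peaks lay at gene ends, and 5.80% of all and 6.35% of narrow I-BET peaks and 95.5% of untreated peaks overlapped I-BET MAX peaks. So no place was in the higher-scoring part of both MYC lists. The same filter took out the 17 I-BET MAX peaks with a score of 0, which met 5 untreated MYC peaks. The MAX shares at this setting depend in part on that. With the 136 highest-ranked peaks of each list, 16.9% of untreated peaks were kept and 20.6% of I-BET peaks overlapped them.

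A width limit of 75 bp gave 55.4% of wide and 2.82% of narrow I-BET peaks in the untreated list and 14.1% of narrow ones in the I-BET MAX list. Untreated peaks at gene ends were 54.8% with a window of 0.5 kb and 69.2% with 2.5 kb. Whole gene bodies with 1 kb around them gave 43.4% of I-BET and 86.5% of untreated peaks, and genes of any biotype 19.1% and 69.6%. Chosen after seeing the data, counting only I-BET peaks at least 100 bp wide gave 6.41% of untreated peaks kept, and leaving out loci with several I-BET peaks put 19.7% of I-BET peaks in the untreated list. Across the 6 other settings the lost genes numbered 189 to 283 of 199 to 310. Read depth, the input and the 3 call sets limit every count, and their part was not tested.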

Other observations

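Chromosome counts are given without a test. Of the 91 narrow I-BET peaks outside the untreated list, 0 lay on chromosome 11, 8 each on chromosomes 2, 7 and 12, and 7 each on chromosomes 1 and 16. Of the 312 untreated peaks, chromosome 11 held the most, 38, of which 5 were kept, chromosomes 2, 7 and 1 held 21, 28 and 16, and chromosomes 12 and 16 held 7 each. Chromosome 4 held 6 narrow I-BET peaks and 20 untreated peaks, none of which was kept.

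By width, the 27 I-BET peaks under 60 bp had 0 in the untreated list and 2 in the I-BET MAX list. The 23 from 80 bp to under 100 bp had 9 and 11, and the 22 from 100 bp to under 200 bp had 17 and 19.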
